A study of Homo sapiens with 2 samples.

Results

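ISG15, OASL and MX2 are interferon-induced antiviral genes, here compared between MDA-MB-231 cells given compound 1 and the same cells given a miR-544 antagomir. They were chosen on measured values of this same comparison, because they were higher on the compound 1 array, and their transcript clusters were then found by gene symbol in the platform's probe table. Each of the 3 genes has 1 cluster, and together they make up 3 of 10887 measured genes. Because the comparison chose them, their differences are given as a description, with no test.

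MDA-MB-231 is an established human breast cancer line of mesenchymal, hormone receptor negative type. Cells of the compound 1 group received that compound, and cells of the antagomir group received an oligonucleotide that blocks miR-544, 24 hours before oxygen was lowered to under 1% for 5 days. Everything else in the labels is shared by both groups, hypoxia included, so that neither is an untreated or a normoxic reference. The design text names 3 samples that were pooled, and each treatment is represented by 1 array, hence no replicate error, standard deviation or p-value exists for any value below, and treatment cannot be told apart from pool or hybridisation.

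Interferons are secreted proteins that cells release after sensing viral or misplaced nucleic acid. They bind receptors that activate the kinases JAK1 and TYK2, and the resulting complex of STAT proteins with IRF9 binds the interferon-stimulated response element in the promoters of many antiviral genes. Some of these genes, ISG15 and OASL among them, can also be switched on by IRF3 or IRF7 directly downstream of the sensors. ISG15 is a ubiquitin-like protein that is attached to other proteins. OASL belongs to the oligoadenylate synthetase family but lacks enzyme activity, carries a ubiquitin-like end and enhances signalling by the RNA sensor RIG-I. MX2 is a dynamin-like GTPase that acts at nuclear pores against HIV-1 and herpesviruses.

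The promoter of ISG15 is shown because it carries the response element through which many interferon-induced genes are switched on. It was read from the RefSeq promoter table (build GRCh38.p14), which gives 250 bases before each gene start, 5′ to 3′ along the gene. Of the 3 genes 1 was matched there, ISG15, and OASL and MX2 were not. Capitals mark matches to the core of the element, which is GAAA, any 2 bases and a further GAAA, searched on both strands. The ISG15 promoter held 2 matches that overlap, the first beginning 113 bases and the second 107 bases before the start.
ISG15, chr1:1013247-1013496, plus strand: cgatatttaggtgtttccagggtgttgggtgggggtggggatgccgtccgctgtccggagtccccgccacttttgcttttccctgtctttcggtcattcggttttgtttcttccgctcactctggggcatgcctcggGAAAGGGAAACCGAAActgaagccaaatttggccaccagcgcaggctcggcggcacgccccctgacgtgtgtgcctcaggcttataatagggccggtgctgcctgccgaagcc

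Of the 39 measured interferon-induced genes with a promoter in that source, 27 (69.2%) held the motif in at least 1 promoter window. The share was 3.46% of the 8356 measured genes with a promoter and 4.38% of all 27305 genes listed there. The same 300-base windows, which also take in 50 bases after the start, were searched for the STAT site core TTCNNNGAA, which reads the same on both strands. It was found in 23.1% of those 39 genes, in 8.22% of the measured genes and in 9.38% of all genes, and not in the ISG15 window. For comparison with ISG15, the stretches around the first matches are given for RTP4, whose difference came next after those of the 3 genes. They are also given for HERC5, the ligase that attaches ISG15 in human cells, and for IFIT1, a classical antiviral gene of the same class. NMI and GBP3 are added as the measured listed genes with the lowest differences. Matches on the opposite strand appear as TTTC pairs.
RTP4, chr3:187368333-187368362, plus strand: tccatacacaGAAACAGAAActgaaccgaa
HERC5, chr4:88456984-88457019, plus strand: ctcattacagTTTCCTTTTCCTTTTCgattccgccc
IFIT1, chr10:89392497-89392539, plus strand: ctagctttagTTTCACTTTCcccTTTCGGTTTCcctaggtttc
NMI, chr2:151289812-151289841, minus strand: ttaaagcagtTTTCTTTTTCactgtctttt
GBP3, chr1:89022845-89022874, minus strand: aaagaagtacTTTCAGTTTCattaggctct
Genes with this element thus stood at both ends of the differences given below, and a match describes letters in a window, not a site in use. Besides ISG15, the 26 measured interferon-induced genes with the motif had a median difference of -0.096 on the log2 scale, with 9 higher and 17 lower on the compound 1 array. The 12 without it had a median of 0.026, with 7 higher and 5 lower (after centring each array -0.0035, with 6 and 6). Quantile normalization and cyclic loess left the first group at -0.025 and -0.033, each with 12 higher and 14 lower.

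All 3 genes were higher on the compound 1 array, by amounts close to each other. ISG15 had a log2 level of 7.73 with compound 1 and 7.32 with the antagomir, a difference of 0.41 or 1.33-fold. OASL was at 7.07 with compound 1 and 6.67 with the antagomir, a difference of 0.40 or 1.32-fold. MX2 was at 5.96 with compound 1 and 5.59 with the antagomir, a difference of 0.37 or 1.29-fold. The differences span 0.038, and their order lies within the spread of differences among single genes at those levels (robust SD of 0.17 to 0.21). The genes were chosen for high values in this comparison, so nothing is read from how close they are.

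The 3 genes differ in how far they stood above the level at which a cluster was counted as measured, 5.60 on either array, the median of all mean levels. ISG15 exceeded it by 2.13 with compound 1 and by 1.72 with the antagomir, and OASL by 1.47 and 1.07 in the same order. MX2 lay 0.36 above it on the compound 1 array and 0.011 below it on the antagomir array. It therefore entered the measured set only through the array on which it is high. Of all 53617 clusters, 56.6% lay below MX2 with compound 1 and 49.9% with the antagomir. For ISG15 the shares were 82.0% and 77.2%, and for OASL 74.8% and 69.1%.

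**Figure D1:**
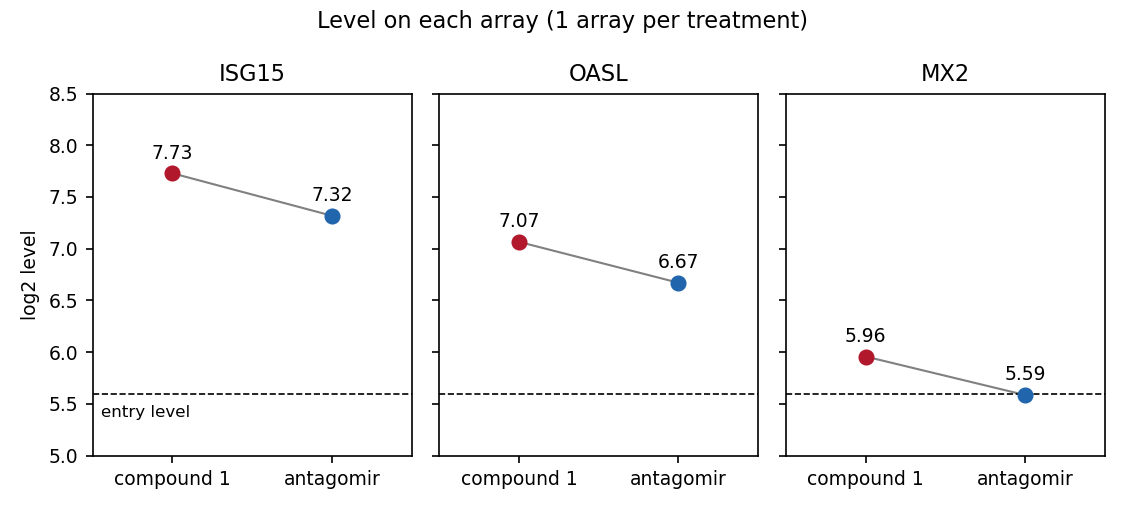
Log2 level (y axis) of ISG15, OASL and MX2 on the compound 1 array (red) and the antagomir array (blue), 1 array per treatment and no error bars. The dashed line is the entry level of 5.60. All 3 genes are higher on the compound 1 array, and MX2 touches the entry level on the antagomir array; levels of different genes come from different probes and are not comparable.

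The threshold used for counting genes is a log2 difference of 0.32 in either direction, which is 25% more signal on the array with more, chosen with the values of these genes known. All 3 genes passed it as higher, where 3.56% of all 10887 measured genes did (388 genes) and 5.27% were lower by as much (574 genes). None of the 3 reached 1.5-fold, which 0.312% of genes passed as higher and 0.551% as lower, or 2-fold, at 0.0276% in each direction. Ranked from the highest difference, ISG15 was gene 174, OASL gene 200 and MX2 gene 244 of all measured genes, and 114, 134 and 163 of the 9584 protein-coding ones. The contrast chose these genes, so that nothing is read from these shares and ranks.

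Differences depended on level across the array. Genes within 0.5 log2 of ISG15 in mean level had a median difference of -0.056, those near OASL -0.0053 and those near MX2 0.060. A difference of 0.32 or more was held by 1.82% of the 2523 genes near ISG15, 3.83% of the 2817 near OASL and 9.74% of the 2208 near MX2. As high a difference as its own was held by 22 genes at the level of ISG15 (0.872%), by 49 at the level of OASL (1.74%) and by 134 at the level of MX2 (6.07%). These shares describe the values that chose the genes. The range around MX2 reaches the entry level, and 513 of its 2208 genes, 82 of the 134 among them, were below it on 1 array and entered through the higher one, against 0 near ISG15 and 0 near OASL. With the median at the level subtracted, ISG15 was at 0.47, OASL at 0.40 and MX2 at 0.31, the last falling short of 0.32.

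**Figure D2:**
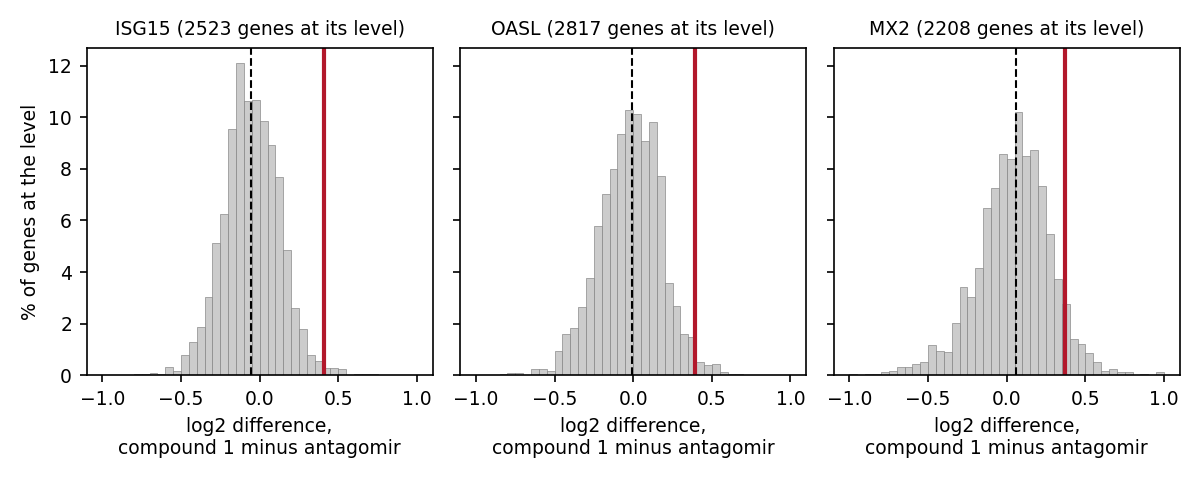
Distribution of the log2 difference (x axis, compound 1 minus antagomir) among measured genes within 0.5 log2 of the mean level of ISG15, OASL and MX2, as a percentage of those genes (y axis). The red line is the gene itself, at 0.41, 0.40 and 0.37, and the dashed line the median of the genes at its level, at -0.056, -0.0053 and 0.060. Near MX2, 6.07% of genes are at or beyond its value, in a range that includes genes below the entry level on 1 array.

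The genes for proteins that work with ISG15 were not at similar differences. The activating enzyme gene UBA7 was at 0.059 and the ligase gene HERC5 at 0.083. HERC6, a relative that serves as the main ISG15 ligase in mice, was at 0.061, and USP18, the protease that removes ISG15 and also restrains the interferon receptor, was at 0.062. UBE2L6, the conjugating enzyme, was at -0.013, and TRIM25, a ligase for RIG-I that is itself modified, at -0.19. In this group of 9 listed genes 7 were measured, of which 5 were higher and 2 lower, with a median of 0.061 (0.032 after centring each array), beside a median of -0.035 over all measured genes. Only ISG15, chosen for its high value, passed 0.32 among the 7. ARIH1 and USP41 are not analysed here. Of other ubiquitin-like modifiers all 7 measured were at or below -0.016, with a median of -0.050, although quantile normalization turned 4 of them higher and cyclic loess 3.

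OASL and MX2 have few measured relatives. OAS1, OAS2 and OAS3, which make the second messenger of this family, are not analysed here, and neither is MX1, the cytoplasmic relative of MX2. Among the guanylate-binding GTPases GBP3 was measured and had the lowest difference of all measured listed interferon-induced genes. It was at 7.95 with compound 1 and 8.38 with the antagomir, a difference of -0.42 and so opposite in sign to MX2. GBP4 and GBP5 stayed below the entry level on each array, at 4.80 and 4.53 with compound 1 and at 5.25 and 4.76 with the antagomir. GBP1, GBP2, GBP6 and GBP7 are not analysed here. Of the constitutive dynamin family, which shares the GTPase fold of MX2, 6 of 7 listed genes were measured with a median of -0.076, 1 of them higher and 5 lower, and none passed 0.32 in either direction. Under quantile normalization and cyclic loess 3 of these were higher and 3 lower (medians -0.0037 and -0.012).

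Many IFIT and IFITM genes encode RNA-binding or membrane-bound antiviral proteins. They were listed here by family, and their direction as a group depended on the scaling. Of 9 listed genes 7 were measured, with 4 higher, 3 lower and a median of 0.011. After centring each array 2 were higher and 5 lower (median -0.018), whereas under quantile normalization and under cyclic loess 6 were higher and 1 lower (medians 0.049 and 0.031). On the deposited scale IFIT1 was at 0.080, IFIT3 at 0.011, IFIT5 at -0.028, IFITM1 at 0.013, IFITM2 at -0.0086, IFITM3 at -0.096 and IFITM10 at 0.19. The signs of IFIT3, IFIT5, IFITM1 and IFITM2 turned under at least 1 of the 3 scalings tried. IFIT2 and IFIT1B stayed below the entry level on each array. IFIT1 was itself close to it, at 5.70 with compound 1 and 5.62 with the antagomir.

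Among 44 other interferon-induced genes 26 were measured, and their median was -0.030 with 11 higher and 15 lower (0.0074 with 13 and 13 after quantile normalization). Highest were RTP4, a chaperone of receptor transport, at 6.06 with compound 1 and 5.76 with the antagomir (difference 0.30), the nuclear body gene SP110 at 6.73 and 6.45 in the same order (0.28) and the helicase gene HELZ2 at 7.82 and 7.65 (0.17). Lowest were NMI, which encodes a partner of STAT proteins, at 6.44 with compound 1 and 6.80 with the antagomir (-0.36), the lipid scramblase gene PLSCR1 at 6.22 and 6.53 (-0.31) and the retroviral restriction factor gene TRIM5 at 5.63 and 5.87 (-0.24). Antigen presentation genes had a median of -0.10 over 5 measured of 21 (-0.032 under quantile normalization and -0.030 under cyclic loess), from ERAP1 at -0.22, B2M at -0.14 and TAPBP at -0.10 to TAPBPL at 0.048 and ERAP2 at 0.10. A second entering cluster of B2M was at -0.057. Of the genes for secreted proteins CCL5 alone was measured, at 0.046 (-0.0083 after cyclic loess), and CXCL9, CXCL10 and CXCL11 stayed below the entry level on each array. The 7 APOBEC3 deaminases are not analysed here.

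Taking all 109 listed interferon-induced genes, 60 were in the probe table, 48 were measured and 12 stayed below the entry level on each array. ISG15, OASL and MX2 were the 3 highest of the 48 and the 3 that passed 0.32 as higher (6.25%, beside 3.56% of all genes). GBP3 and NMI passed it as lower (4.17%, beside 5.27%). The 3 genes were chosen for high values, and the threshold with those values known, so nothing is read from their place. Without the 3 genes, 22 of 45 were higher and 23 lower, with a median of -0.0086, while 41.7% of all measured genes were higher and their median was -0.035. The sign of this median turned with the scaling, to 0.025 under quantile normalization and 0.012 under cyclic loess. With each gene set against genes of its level, 25 of the 45 were above the median there and 20 below. The values just beyond the 3 genes were those of RTP4 and SP110, named above, with IFITM10, which was listed by its family, next.

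**Figure D3:**
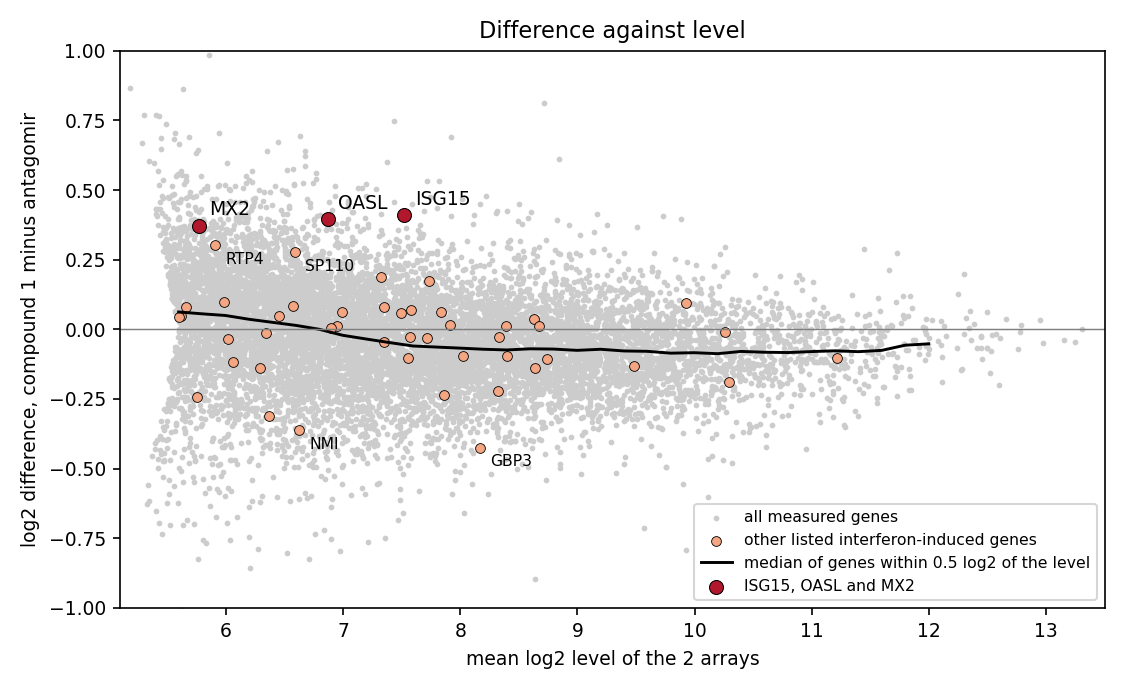
Log2 difference (y axis, compound 1 minus antagomir) against the mean log2 level of both arrays (x axis) for all measured genes (grey), 45 other listed interferon-induced genes (orange) and ISG15, OASL and MX2 (red), with the median of genes within 0.5 log2 as a line. The plotted range leaves out 6 genes. The orange points lie on both sides of the line, from GBP3 at -0.42 to RTP4 at 0.30. The red points lie above all of them, having been chosen for high values in this comparison.

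No measured gene that acts before the induced ones passed 0.32 in either direction. Of all measured genes 3.56% were higher and 5.27% lower by as much. The earlier-acting genes measured were 2 receptor chains, 4 JAK-STAT genes, 6 other regulatory factors, 12 sensors and adaptors and 6 inhibitors. At those shares lists this small would hold few such genes, so nothing is read from their absence. All 22 interferon genes are not analysed here, nor are the receptor chains IFNAR1, IFNAR2, IFNLR1 and IL10RB. The interferon gamma receptor chains IFNGR1 and IFNGR2 were at -0.14 and -0.089. Of the receptor kinases JAK1 was at 0.033, TYK2 at 0.028 (-0.0015 after centring) and JAK2 at 0.12. IRF9, the DNA-binding part of the complex that drives the response element, had a difference of -0.27, with levels of 7.72 with compound 1 and 7.99 with the antagomir.

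Other interferon regulatory factors had a median of 0.11 over 6 measured genes, with 4 higher and 2 lower (6 and 0 after quantile normalization or cyclic loess). IRF1, a factor induced by interferon gamma, was at 0.15, and IRF7, which amplifies the type I response, was at 0.14. IRF5 was at 0.13 and IRF8 at 0.094, whereas IRF3, the factor directly below the sensors, was at -0.033 and IRF2, a repressor, at -0.0078. IRF4 stayed below the entry level on each array. With the median of genes at the level subtracted from each, the group stood at 0.072. A stricter entry level, the 75th percentile, kept 2 of these genes, whose median was -0.021.

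Nucleic acid sensors and their adaptors had a median of -0.053 over 12 measured of 17 genes (0.0093 with quantile normalization and 0.00038 with cyclic loess). Highest were the adaptor MYD88 at 0.23, the RIG-I relative DHX58 at 0.13 and the adaptor TICAM1 at 0.10. Lowest were the DNA sensing adaptor STING1 at -0.21, the helicase DDX41 at -0.13 and TRAF3 at -0.12. RIGI, the sensor that OASL binds, was at 9.55 with compound 1 and 9.51 with the antagomir, a difference of 0.036. Inhibitors of the pathway spanned IRF2BP2 at -0.18, SOCS3 at -0.15 and CISH at -0.025 to SOCS1 at 0.026, IRF2BP1 at 0.032 and USP18 at 0.062. A second entering cluster of IRF2BP2 was opposite in sign, at 0.074. The median of the 6 genes was 0.00068 (-0.017 after quantile normalization and -0.029 after cyclic loess).

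**Figure D4:**
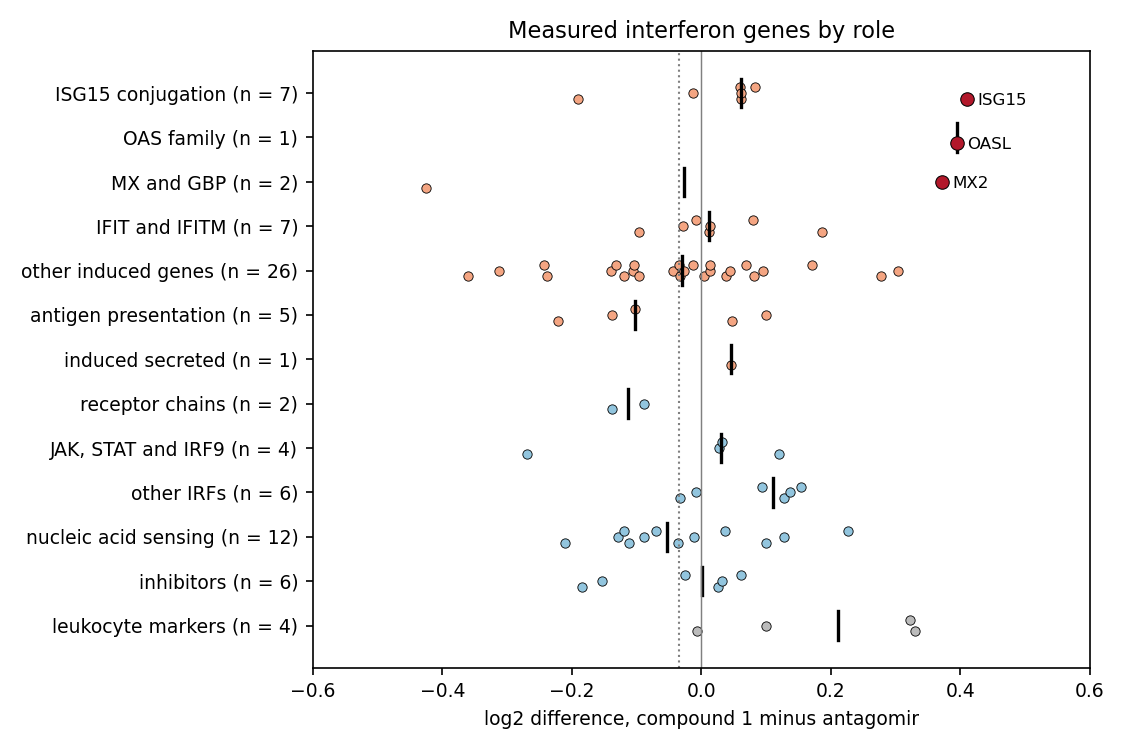
Log2 difference (x axis, compound 1 minus antagomir) of each measured gene in lists by role (y axis, with the number measured): induced genes in orange, components that act before them in blue, leukocyte markers in grey, and ISG15, OASL and MX2 in red. Black bars are list medians and the dotted line is the median of all measured genes, -0.035. ISG15, chosen for its high value, stands apart from the other 6 conjugation genes, which lie between -0.19 and 0.083. UBE2L6 appears in 2 lists and USP18 in 2.

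Marker genes were set beside these values. Mesenchymal markers of the line were at high level and alike on both arrays, with 8 of 13 listed genes measured and differences from -0.17 (MMP14) to 0.054 (FN1), and the hormone receptor genes ESR1 and PGR stayed below the entry level on each array. Other luminal markers were measured, 7 of 11 listed, with 4 higher and 3 lower, none past 0.32. Among them KRT18 was at 11.18 with compound 1 and 11.28 with the antagomir and KRT19 at 8.78 and 9.04 in the same order, and the differences ran from TFF1 at -0.29 and KRT19 at -0.26 to GATA3 at 0.17 and FOXA1 at 0.25. Leukocyte markers were higher on the compound 1 array in 3 of 4 measured genes (4 after quantile normalization or cyclic loess), beside 41.7% of all measured genes. CD2 was at 6.13 with compound 1 and 5.80 with the antagomir (difference 0.33), NKG7 at 6.59 and 6.27 (0.32) and CSF1R at 6.41 and 6.31 (0.10). These levels are not far above the entry level of 5.60. CD68, which many cell types express, was at 11.59 and 11.60 (-0.0060). CD2 and NKG7 passed 0.32 on the deposited scale, NKG7 only just, where 3.56% of all measured genes did. The share was 9.74% near MX2 in level, where CD2 lies, and 3.83% near OASL, where NKG7 lies. Neither passed under the 3 scalings. After centring, quantile normalization and cyclic loess CD2 was at 0.300, 0.306 and 0.289, and NKG7 at 0.293, 0.316 and 0.307. The summed linear signal of the 4 markers was 3345 with compound 1 and 3318 with the antagomir. Without CD68 it was 252 and 213 in the same order, from genes of low level. CD14 and LYZ stayed below the entry level on each array, and 9 of the 15 listed markers, PTPRC, CD3E and CD3D among them, are not analysed here. The part of such transcripts in the differences of the 3 genes was not tested.

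As a description of likeness, the protein-coding genes closest to each gene over the levels of the 2 arrays were found by Euclidean distance. For ISG15 they were KLHL17 (0.035), MAST1 (0.083) and CHMP4C (0.092). For OASL they were MMEL1 (0.017), SLAMF7 (0.021) and MYOG (0.028), and for MX2 they were CNTNAP3B (0.015), CFAP52 (0.019) and GAL3ST1 (0.019). None of the 9 is in the interferon lists. Over 2 arrays such a distance only says that both levels are nearly equal.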

How the data were processed

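RNA of MDA-MB-231 cells was measured on 2 arrays, 1 per treatment, from biotin-labelled cRNA of 5 µg total RNA per the labels. The title of the series gives a different array type, whereas its cluster numbers and the probe table behind every gene name here belong to a whole-transcript design. The authors deposited 1 log2 value per transcript cluster and array. The log base was taken as 2 from the range of the values (0.37 to 14.2). Of software, background correction, normalization and genome build nothing is stated (not given in the sources used here). Every sample column was mapped (0 left out).

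Of 53617 clusters 16098 carry 1 gene symbol in the platform's probe table. A cluster entered when its higher value reached the 50th percentile of mean levels, 5.60, and each gene took the value of its entering cluster with the highest mean (10887 genes, 9584 protein-coding by RefSeq type). Differences are compound 1 minus antagomir without further scaling. No test was possible, and the number of arrays limits the precision. The counting code was tested on simulated data.

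The 3 genes, the lists and the threshold of 0.32 were chosen with earlier results of these data known. Genes were named by a rule: the 3 genes, all members of the conjugation, OAS, MX and GBP, IFIT and IFITM, JAK-STAT, receptor and IRF lists, the 3 highest and 3 lowest of other interferon lists, and the 3 nearest genes by level. Marker genes were named outside it, after their values were seen, as were IFI44L, RIGI, CXCL9, CXCL10 and CXCL11. The planned protein comparison was not run. Alternatives were 3 scalings, 3 filters, 2 cluster choices and 3 folds. Cyclic loess used limma 3.58.1 in R 4.3.3; all else used Python 3.11.15 with pandas 2.3.3, numpy 2.4.6 and matplotlib 3.10.9.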

Additional observations from a re-analysis of the deposited data

How the results depend on the processing

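ISG15 ranged from 0.38 to 0.47, OASL from 0.37 to 0.42 and MX2 from 0.31 to 0.37 over the settings that kept them, without a change of sign. Filters and cluster choice could not alter these values, since each gene has 1 cluster. MX2 left the measured set when both arrays had to reach the entry level, and OASL and MX2 when entry was at the 75th percentile. Subtracting the median at the level was chosen after seeing the data, as was the list without the 3 genes. For the 48 listed interferon-induced genes the median of 0.0074 became -0.022 after centring and -0.028 with entry at the 75th percentile. For the 45 without the 3 genes it was -0.038 after centring, 0.025 after quantile normalization and 0.019 with the median at the level subtracted. With no filter 1 of these other genes, IFI44L, was higher by 0.32 or more and 4 lower, beside 1050 higher and 859 lower of all 14884 genes. With entry at the 75th percentile 1 listed gene was higher and 1 lower, beside 80 and 328 of all genes. At 1.1-fold 7 listed genes were higher (4 without the 3) and 8 lower, beside 1876 and 2958 of all. At 1.5-fold 0 were higher and 0 lower, beside 34 and 60 of all, and at 2-fold 0 and 0, beside 3 and 3. Centring moved the split of all genes past 0.32 from 388 higher and 574 lower to 307 and 780. No paired analysis was possible because only 1 array exists per treatment. Low signal limits MX2 most, where the robust SD of differences was 0.21 against 0.17 at the level of ISG15.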

Other observations

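The neighbours of the 3 genes on their chromosomes did not share 1 direction. Among the 3 measured genes on either side of ISG15 on chromosome 1, KLHL17 was at 0.37, NOC2L at 0.21 and AGRN at 0.12, while RNF223 was at -0.0069, HES4 at -0.14 and C1orf159 at -0.42. KLHL17, which was also the gene nearest to ISG15 by level, was at 7.72 with compound 1 and 7.35 with the antagomir. Around OASL on chromosome 12 all 6 neighbours were lower on the compound 1 array, from SPPL3 at -0.098 to ANAPC5 at -0.25. Of all 10887 measured genes 6223 were lower, so nothing is read from this count. Around MX2 on chromosome 21 the 6 values lay between -0.17 (DSCAM) and 0.066 (RIPK4). The neighbours were looked up after the other values had been seen, and no setting other than the deposited scale was applied to them.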
